A study of Homo sapiens with 6 samples.

Results

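The 45 mitosis and spindle checkpoint genes described here were taken from a fixed list of G2/M genes, among them CCNB1, CDC20 and PLK1, and make up 45 of 19970 protein-coding genes on the autosomes and chromosome X. Each gene was scored by whether a ChIP-seq peak lay within 1 kb of any of its transcription start sites (TSSs) in GENCODE release 44, where the summit of an E2F1 peak or the midpoint of an H3K27me3 peak had to fall inside the window. All libraries came from MDA-MB-231, a cell line of human triple-negative breast cancer. Chromatin bound by the transcription factor E2F1 was sequenced from untreated cells and after 72 h with either the solvent DMSO or 1 μM GSK126, which blocks the methyltransferase activity of EZH2. Trimethylated lysine 27 of histone H3 (H3K27me3), the repressive mark that EZH2 deposits, was profiled in cells with a control shRNA and in cells with an E2F1 shRNA (shE2F1), after 24 h of lentiviral transduction and 72 h of selection in 2 μg/ml puromycin. Of the 6 samples in the series, the input of untreated cells was not analysed here, and each of the other 5 conditions has 1 library. No difference between conditions therefore has a replicate check, no p-value between conditions is given, and the extent of the E2F1 knockdown could not be checked from peak lists.

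The genes of the list encode the machinery of cell division. Cyclin B and the kinase CDK1 start mitosis, the spindle assembly checkpoint holds chromosomes until they are attached, and the anaphase-promoting complex then releases the sister chromatids. E2F factors are best known for switching on DNA replication genes in late G1 through E2F sites. Mitotic genes peak later, in G2 and mitosis, and many carry a cell cycle genes homology region (CHR), an element bound by the MuvB core complex, which acts as a repressor within DREAM and as an activator together with B-MYB and FOXM1. CCAAT boxes, the sites of NF-Y, are often found close to a CHR.

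Most of the mitosis genes had an E2F1 peak. In untreated cells 19 of the 45 genes (42.2%) had one, against 5.85% of all protein-coding genes. In DMSO 39 of 45 (86.7%) had one, against 33.5% of all genes, and in GSK126 44 of 45 (97.8%), against 51.5% of all genes. A peak in all 3 E2F1 lists was found at 18 genes, or 40.0%, against 5.71% of all genes. HMMR was the single gene without a peak in any E2F1 list under the 1 kb rule. The lowest background solved at any called summit was 0.668 fragments in the untreated library, against 1.82 in DMSO and 1.70 in GSK126. The untreated list held 1056 peaks against 15703 and 14276. Sequencing depth itself was not read, and the reason for the shorter list was not tested. A gene without an untreated peak was not called in that short list, which does not show that E2F1 was absent. H3K27me3 was called at 7 of 45 genes in control shRNA, against 23.2% of all genes, and at 24 of 45 in shE2F1, against 46.4% of all genes. Both standings against all genes depended on the threshold or on how peaks were assigned. At a −log10 q of at least 5, control shRNA peaks stood at 4 genes (8.89%, against 2.55% of all genes), and with the nearest TSS alone shE2F1 peaks stood at 18 (40.0%, against 41.5%).

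**Figure D1:**
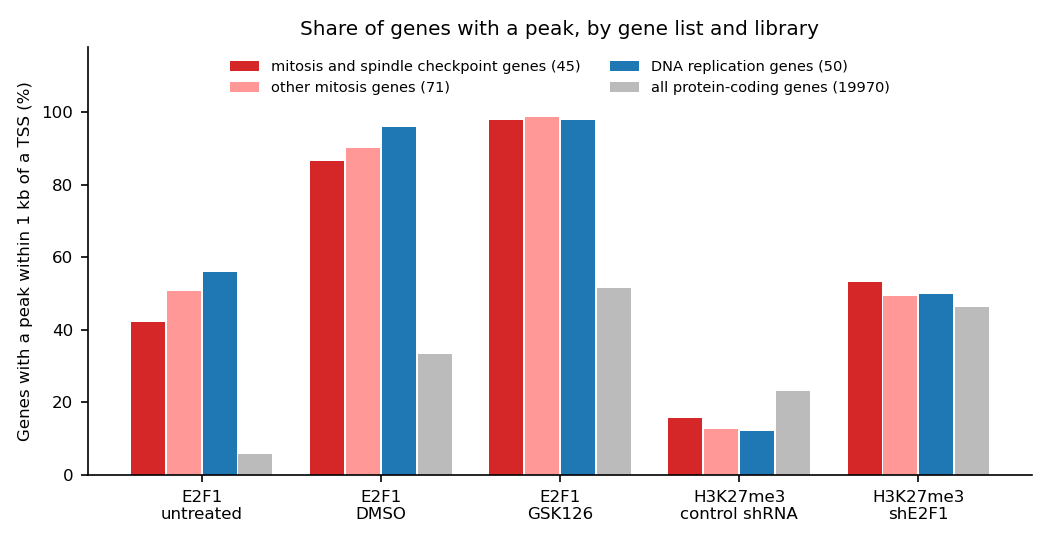
Share of genes (in percent, bars from 0) with a peak within 1 kb of a TSS in each of the 5 libraries, for the 45 mitosis genes, 71 other mitosis genes, 50 DNA replication genes and all 19970 protein-coding genes. The 3 E2F1 libraries stand at 42.2%, 86.7% and 97.8% for the mitosis genes, above the bar of all genes each time, whereas H3K27me3 in control shRNA stands at 15.6%, below it, a standing that turns at a stricter −log10 q, with 13.3% against 11.8% of all genes at 2 or more and 8.89% against 2.55% at 5 or more.

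To describe what the promoters share beyond E2F1 peaks, the reference sequence was searched from 200 bp before to 100 bp after the canonical TSS, on both strands. The CHR was searched as TTTGAA or TTCGAA and was present in 37 of the 45 genes (82.2%), against 11.3% of all protein-coding genes. The E2F motif, searched as TTCCCGC, as TTCGCGC, as TTGCCGC or as TTGGCGC, was present in 11 of 45 (24.4%), against 17.5% of all genes. Both motifs were present in 9 genes, or 20.0%, against 1.53%. A CCAAT box was found in 36 genes (80.0%, against 34.3% of all genes), and 2 or more CCAAT boxes in 25 genes (55.6%, against 11.4%). FOXM1 carries an E2F motif and a CCAAT box that overlap by some letters, since TTGGCGC on one strand reads GCGCCAA on the other. In the list of 50 DNA replication genes the motifs were the other way round, with the E2F motif in 38 (76.0%) and the CHR in 3 (6.0%). The 71 other mitosis genes had a CHR in 49 (69.0%) and an E2F motif in 30 (42.3%). A match is a description of letters in a window and does not show a bound site.

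The CHRs of 6 genes are shown as examples of promoters that had an E2F1 peak and no exact match to the E2F motif in that window. Looser matches to the E2F motif were not searched for. Each line gives 30 bases of the hg38 reference (GRCh38), 5′ to 3′ on the strand of the gene, with the CHR in capitals.
CCNB2 (chr15:59105105-59105134, plus strand): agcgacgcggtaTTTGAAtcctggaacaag
CDC20 (chr1:43358904-43358933, plus strand): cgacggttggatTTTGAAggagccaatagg
PLK1 (chr16:23678848-23678877, plus strand): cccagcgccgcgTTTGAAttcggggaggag
CDC25C (chr5:138331817-138331846, minus strand): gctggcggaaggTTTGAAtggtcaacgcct
BUB1B (chr15:40161034-40161063, plus strand): gggaccgttaaaTTTGAAacttggcggcta
AURKB (chr17:8210597-8210626, minus strand): cggggcgggagaTTTGAAaagtccttggcc
The first base of the CHR lay 29 bp upstream of the canonical TSS in CCNB2 and in PLK1, 30 bp upstream in CDC25C, 23 bp in BUB1B, 39 bp in AURKB and 65 bp in CDC20. The CHRs shown lie inside the GSK126 E2F1 peak of the gene except at CDC20, whose peak ended at position 43358794, upstream of the CHR. At CCNB2 the CHR lay at the edge of the peak, which began at position 59105115, and the summit was away from it, at 337. The stretches lie between protein-coding genes for CCNB2, CDC20 and AURKB, in a UTR exon of CDC25C, and in non-coding transcript exons of PLK1 and BUB1B. The reverse letters TTCAAA count as a CHR on the other strand, as in UBE2C (chr20:45812601-45812630).

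The E2F motifs of 4 genes are shown because CCNB1 has no CHR in the window and CDK1, SPC25 and FOXM1 are among the genes with the highest E2F1 folds. The E2F motif is in capitals.
CCNB1 (chr5:69167007-69167036, plus strand): tctcgaacgccTTCGCGCgatcgccctgga
CDK1 (chr10:60778340-60778369, plus strand): ttcctctttctTTCGCGCtctagccacccg
SPC25 (chr2:168890432-168890461, minus strand): ggaggcgggtgGCGGGAAgtgcactaggtt
FOXM1 (chr12:2877144-2877173, minus strand): acgctccgccgGCGCCAAtttcaaacagcg
In CCNB1 the motif starts at −132 and the GSK126 summit lay at −129, counted from the canonical TSS with upstream positions negative. In SPC25 the motif starts at −20 and the GSK126 summit lay at −15, and in FOXM1 they stood at 12 and 15. In CDK1 the motif shown starts at −127 and the GSK126 summit lay at −106. These 4 genes do not stand for all genes with the motif. SPC24, with the highest DMSO and GSK126 folds, has its motif at 61 and its GSK126 summit at −14. Over the 11 genes with the motif, the median distance to the GSK126 summit was 21 bp (1 to 196), with 7 within 50 bp. The DMSO summit of CCNB1 lay at 165, away from the motif. SPC25 and FOXM1 carry the motif on the other strand, and in FOXM1 the letters of a CHR (ttcaaa) start at position 20, with 1 base between.

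**Figure D2:**
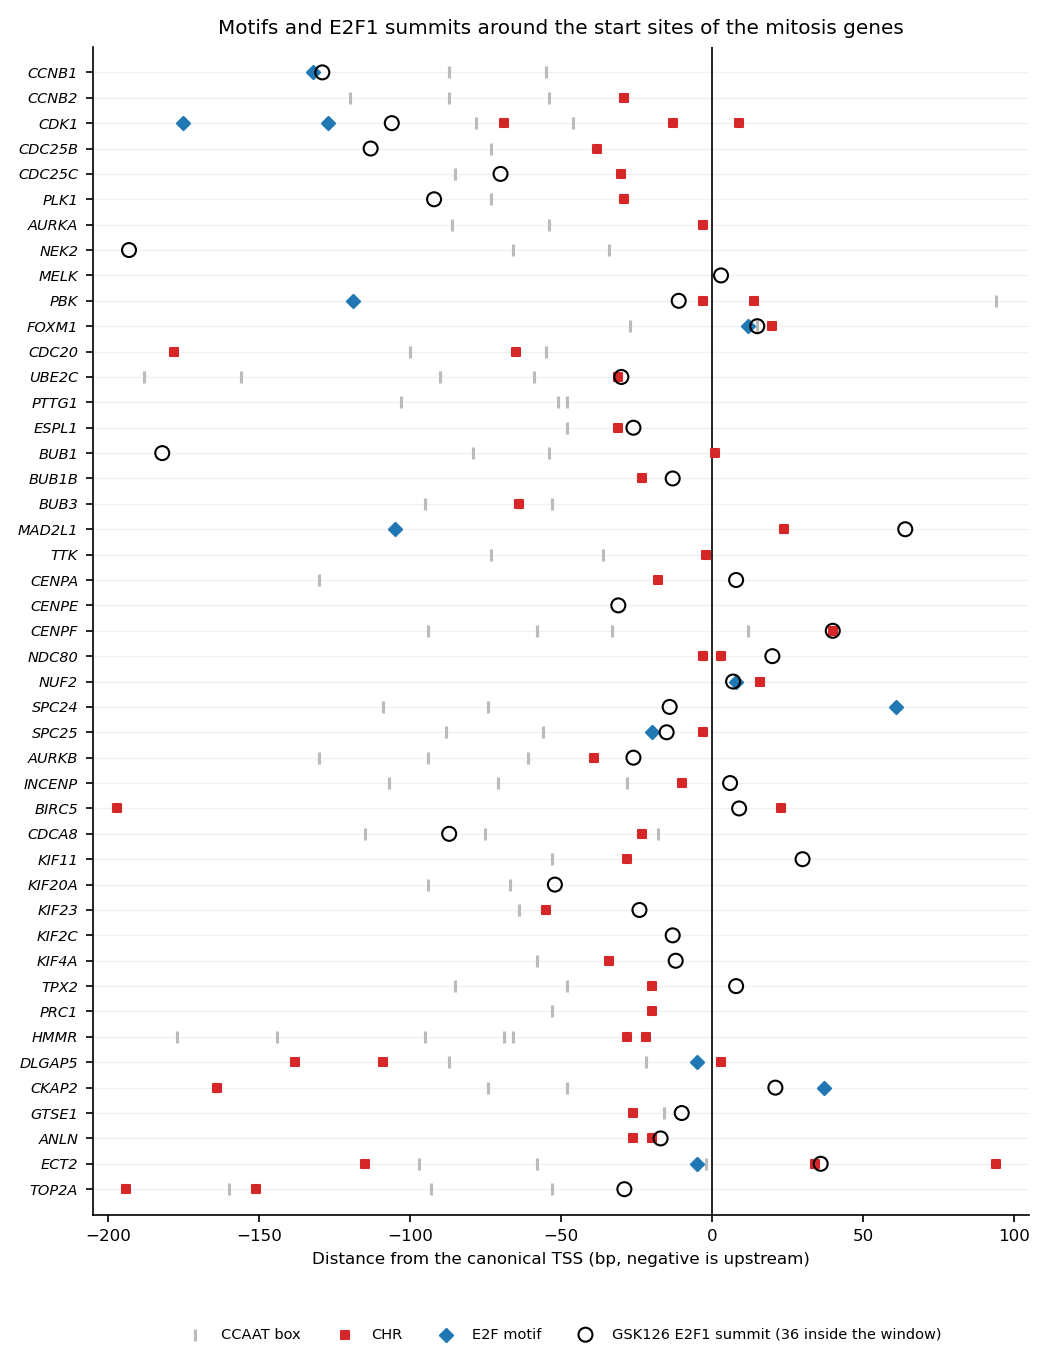
Positions of the CHR (red squares), the E2F motif (blue diamonds), CCAAT boxes (grey ticks) and the GSK126 E2F1 summit (open circles) in base pairs from the canonical TSS, with 1 line per mitosis gene. 36 of the 44 GSK126 summits fall inside the plotted window, and 32 of the 37 genes with a CHR have one starting within 50 bp of the TSS.

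E2F1 summits at the mitosis genes sat close to the TSS. The median distance from the canonical TSS was 29 bp for untreated cells, 36 bp for DMSO and 30 bp for GSK126, against 189, 199 and 181 bp for all genes with a peak. In GSK126 36 of 44 summits lay within 200 bp, a share that was 53.4% over all genes with a peak. By annotation, 25 of the 44 GSK126 summits fell in a UTR exon, 11 between protein-coding genes, 6 in an intron and 2 in a non-coding transcript exon. The sequence under the summits followed that of the promoters. Within 100 bp of the summit the CHR was present at 14 of 19 untreated, 25 of 39 DMSO and 28 of 44 GSK126 summits. These shares were 73.7%, 64.1% and 63.6%, against 13.5%, 7.67% and 6.42% for all promoter summits of the same list. The E2F motif was present at 6 of 19, 12 of 39 and 11 of 44 summits. Its shares were 31.6%, 30.8% and 25.0%, against 54.6%, 36.6% and 32.0% for all promoter summits of the same list. At DNA replication genes it was present at 83.7% of the GSK126 summits. The median distance from the GSK126 summit to the nearest CHR in the TSS window was 29.5 bp over 36 genes, with 22 within 50 bp. Only motifs near the TSS were counted, and the nearest CHR had a median position of −20 bp from the TSS. Closeness of summits to a motif therefore cannot be told apart from closeness of both to the TSS. These distances were not set against those of all genes.

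The height of the E2F1 peaks was compared by the fold enrichment, taking the strongest peak of each gene. The fold is the ratio of fragments to local background at the summit, with a pseudocount of 1 added to both. The pseudocount lowers the fold more where the background is small, as in the untreated library. Folds of the untreated library are therefore not on equal terms with those of DMSO and GSK126. The median fold was 10.1 over 19 genes in untreated cells, 13.4 over 39 genes in DMSO and 22.3 over 44 genes in GSK126, against 8.28, 6.03 and 7.78 over all genes with a peak. The 50 DNA replication genes stood higher, at 11.8, 19.7 and 36.3. The 71 other mitosis genes stood at 9.48, 12.3 and 17.6. Among the mitosis genes, the 18 with both an untreated and a DMSO peak had a median DMSO fold of 19.2 (10.5 to 33.3), and the 21 with a DMSO peak and no untreated peak had 8.76 (3.68 to 16.9). The untreated library thus listed mostly genes whose DMSO fold was high, with the ranges overlapping between 10.5 and 16.9. Across 39 genes the order of the folds was alike in DMSO and GSK126 (Spearman's rho 0.965, across genes, which are not replicates, and given as a description). The fragments at the summits behind these folds ranged from 13 to 64 for untreated cells, from 23 to 186 for DMSO and from 15 to 326 for GSK126.

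**Figure D3:**
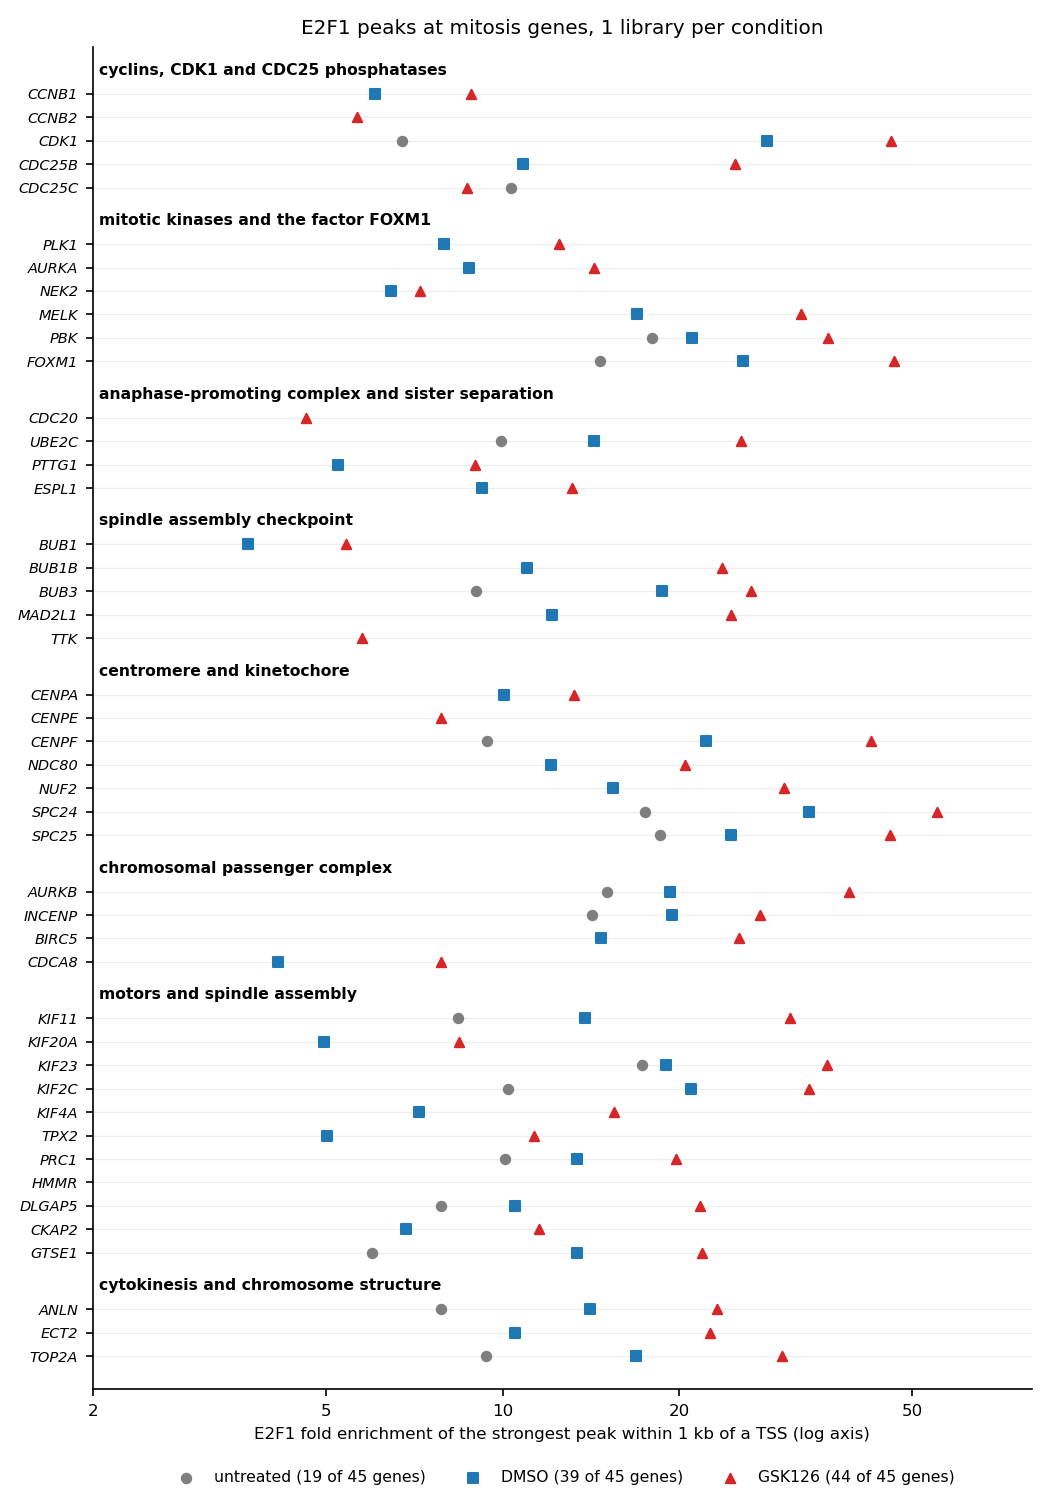
E2F1 fold enrichment (log axis) of the strongest peak within 1 kb of a TSS for the 45 mitosis genes, ordered by role, with grey circles for untreated, blue squares for DMSO and red triangles for GSK126. SPC24 has the highest GSK126 fold at 55.2, CDC20, CCNB2, TTK and CENPE have a red triangle alone, and the line of HMMR is empty.

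Among the cyclins, CDK1 and the CDC25 phosphatases, CDK1, the kinase that drives entry into mitosis, had a fold of 6.72 in the untreated library, 28.3 in DMSO and 46.1 in GSK126. Its DMSO peak (chr10:60778129-60779125) had its summit in a UTR exon at −102. CCNB1, which encodes cyclin B1, had no untreated peak, a fold of 6.07 in DMSO, from 30 fragments (exact Poisson 95% interval 20.2 to 42.8), and a fold of 8.83 in GSK126, from 62 (47.5 to 79.5). CDK1 therefore stood far above its partner cyclin in both libraries. The DMSO and GSK126 summits of CCNB1 lay apart, at 165 in a coding exon and at −129 upstream. CCNB2, which encodes cyclin B2, had a peak in GSK126 alone, with a fold of 5.65 and the summit in an intron at 337. CDC25B, a phosphatase that activates CDK1, had no untreated peak and folds of 10.8 and 24.9. CDC25C, another phosphatase of CDK1, had an untreated fold of 10.3 (chr5:138331779-138332031) and a GSK126 fold of 8.71 (chr5:138331719-138332164), with no DMSO peak. CDC25C was the single mitosis gene with an untreated peak and no DMSO peak. Its TSS lies 131 bp from that of FAM53C on the opposite strand, to which the untreated summit was nearer.

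Of the mitotic kinases, PLK1, which acts at centrosomes, kinetochores and the midbody, had a fold of 7.93 in DMSO and 12.5 in GSK126, with no untreated peak. AURKA, the centrosomal aurora kinase, had folds of 8.76 and 14.3, and its summits lay in a UTR exon of the neighbouring CSTF1 on the opposite strand, whose TSS is 156 bp away. PBK, a mitotic kinase, had folds of 18.0, 21.1 and 35.9 in untreated, DMSO and GSK126. PBK and FOXM1 were the genes of this group with an untreated peak. FOXM1, the transcription factor of G2/M genes, had folds of 14.6, 25.7 and 46.5, the last over a peak of chr12:2875958-2878068. MELK had 16.9 in DMSO and 32.3 in GSK126, although its window held none of the 3 motifs. NEK2, a centrosomal kinase, had 6.46 and 7.24, the closest pair of DMSO and GSK126 values among the 39 genes.

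The genes of the anaphase-promoting complex and of sister separation had folds from 5.24 to 14.3 in DMSO and from 4.62 to 25.5 in GSK126. UBE2C, the ubiquitin-conjugating enzyme of the complex, had folds of 9.96, 14.3 and 25.5 in untreated, DMSO and GSK126. CDC20, its activator and the target of the checkpoint, had a peak in GSK126 alone (chr1:43358339-43358794), where the fold was 4.62, the −log10 q 7.43 and the summit held 22 fragments (exact Poisson 95% interval 13.8 to 33.3). This was the lowest GSK126 fold among the 44 genes, and the summit lay 360 bp upstream of the TSS, the farthest of the GSK126 summits from a TSS of its gene. ESPL1, which encodes separase, had 9.21 and 13.2 in DMSO and GSK126, and PTTG1, which encodes its inhibitor securin, had 5.24 and 8.97. Neither ESPL1 nor PTTG1 had an untreated peak, and none of the 4 genes of this group had an E2F motif in the TSS window.

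All 5 genes of the spindle assembly checkpoint carried a CHR, and 1, MAD2L1, also carried an E2F motif. BUB3 was the single one with an untreated peak, with folds of 8.99, 18.7 and 26.5 and summits about 300 bp upstream of the TSS, from −338 to −301. BUB1B, which encodes BUBR1, had 11.0 in DMSO and 23.7 in GSK126. MAD2L1, which encodes the checkpoint protein MAD2, had 12.1 and 24.5. BUB1, the kinase that recruits other checkpoint proteins to the kinetochore, was low at 3.68 and 5.40, and its DMSO fold was the lowest among the 39 genes. TTK, which encodes the checkpoint kinase MPS1, had a GSK126 peak alone, with a fold of 5.75 from 15 fragments (8.40 to 24.7), the fewest of the 44 GSK126 summits.

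The centromere and kinetochore genes held the highest folds. SPC24 and SPC25, which form a dimer inside the NDC80 complex, had folds of 17.5, 33.3 and 55.2 and of 18.5, 24.5 and 45.8 in untreated, DMSO and GSK126. SPC24 was highest in DMSO and GSK126, where its summits held 147 fragments (exact Poisson 95% interval 124 to 173) and 232 (203 to 264), and SPC25 was highest in untreated cells. The other dimer of the same complex, NDC80 and NUF2, had no untreated peak. NDC80 had 12.1 and 20.5, and NUF2 had 15.4 and 30.3. The untreated list thus held both genes of 1 dimer and neither gene of the other, although all 4 genes had peaks in DMSO and GSK126. NDC80 and NUF2 had lower DMSO folds than SPC24 and SPC25. Their missing peaks in the short untreated list do not show that E2F1 was absent. CENPF, a large kinetochore protein, had 9.41, 22.2 and 42.5. CENPA, the histone H3 variant of centromeres, had 10.0 and 13.2, and CENPE, a kinetochore motor, had 7.85 in GSK126 alone, with no CHR, E2F motif or CCAAT box in its window.

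All 4 genes of the chromosomal passenger complex carried a CHR and none an E2F motif. AURKB, its kinase, had folds of 15.1, 19.3 and 38.9, and INCENP, its scaffold, had 14.2, 19.5 and 27.5. BIRC5, which encodes survivin, had 14.7 and 25.3 with no untreated peak. CDCA8, which encodes borealin, was the lowest of the complex with 4.14 and 7.86. Its DMSO summit lay at −700 in an intron of C1orf109, the farthest from the TSS of any DMSO summit and the 1 DMSO peak lost with a 500 bp window, whereas its GSK126 summit lay at −87.

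Of the 11 motor and spindle assembly genes, 6 had an untreated peak. KIF23, a motor of the central spindle, had folds of 17.3, 19.0 and 35.7, and KIF2C, a microtubule depolymerase, had 10.2, 21.0 and 33.3 without a CHR or an E2F motif in its window. KIF11, the motor that separates the spindle poles, had 8.40, 13.8 and 30.9. These 3 motors had the highest GSK126 folds of the group. PRC1, which bundles central spindle microtubules, had 10.1, 13.4 and 19.8, and DLGAP5, which stabilises spindle microtubules, had 7.85, 10.5 and 21.7. GTSE1, a microtubule-associated protein, had 5.99, 13.4 and 21.9, the lowest untreated fold of the 19 genes. KIF4A, a chromosome motor, TPX2, an activator of AURKA, CKAP2, a spindle protein, and KIF20A, a motor of cytokinesis, had peaks in DMSO and GSK126 alone. Their DMSO folds ran from 4.95 for KIF20A to 7.20 for KIF4A, and their GSK126 folds from 8.42 for KIF20A to 15.5 for KIF4A.

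HMMR, a spindle-associated protein that also binds hyaluronan, had no peak by the rule and lay just outside it. A DMSO peak (chr5:163461406-163461831) had a fold of 8.50 and its summit in an intron of HMMR at 1090, which was 1062 bp from the nearest TSS. The GSK126 peak (chr5:163459651-163462051) covered the TSS with a fold of 17.4, but its summit lay at 1074, or 1046 bp from the nearest TSS. With a window of 2000 bp, or any overlap of the peak with the 1 kb window, HMMR counted in both lists, and 40 and 45 of the 45 genes had a peak. Over all genes the shares were 34.8% and 52.8% with the wider window, and 34.0% and 52.2% with any overlap. The window also decided the next gene inside it, CDCA8 in DMSO at 665 bp from the nearest TSS. The HMMR promoter holds CHRs at −28 and −22.

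The last 3 genes act in cytokinesis and chromosome structure. TOP2A, the topoisomerase that untangles sister chromatids, had folds of 9.38, 16.9 and 30.0. ANLN, the scaffold anillin of the contractile ring, had 7.86, 14.1 and 23.2, and ECT2, which activates RhoA at the equator, had 10.5 and 22.6 with no untreated peak. All 3 carried a CHR, and ECT2 carried an E2F motif as well.

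To ask whether inhibition of EZH2 changed E2F1 at these genes, GSK126 was set against DMSO. A peak in GSK126 with none in DMSO was found at 5 genes (CCNB2, CDC25C, CDC20, TTK and CENPE), or 11.1%, against 18.7% of all genes, and the reverse at 0 genes, against 0.796% of all genes. At the 39 genes with both peaks the fold was higher in GSK126 at all 39, and the log2 ratio of fold had a median of 0.78 (0.16 to 1.20). The same shift was seen across the genome, with a median of 0.73 and a higher fold at 6354 of 6539 genes with both peaks. When genes were taken by their DMSO fold, the 20 mitosis genes with a fold from 10 to 20 had a median of 0.87 against 0.74 for 1040 genes, and the 7 with a fold from 20 had 0.77 against 0.78 for 278. The medians of the 3 genes with a fold under 5 and of the 9 with a fold from 5 to 10 were 0.77 and 0.71, against 0.78 and 0.70. The mitosis genes thus followed the shift of other genes with a like DMSO fold, except for a somewhat larger median between folds of 10 and 20. Both libraries had 1 sample, so a difference in the drug and a difference between the libraries cannot be told apart.

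Single genes were compared by the fragments at the summit divided by the lowest background of the library, with an exact binomial 95% interval that covers counting error only. The interval lay above 0 on the log2 scale at 35 of the 39 genes, against 61.4% of all genes with both peaks, and below it at 0 genes, against 0% of all genes. More fragments give narrower intervals, and the folds of the mitosis genes were higher than those of all genes, so the 2 shares were not taken at equal precision. The intervals of NEK2, CENPA, BUB1 and CDCA8 spanned 0. By fold, the highest log2 ratios were those of CDC25B (1.20), TPX2 (1.17) and KIF11 (1.16), and the lowest were those of NEK2 (0.16), CENPA (0.40) and INCENP (0.50). By fragments, CDC25B stood at 1.24 (0.73 to 1.76) and NEK2 at 0.34 (−0.37 to 1.07), and these intervals overlapped. CCNB1 had a log2 ratio of 0.54 by fold and 1.15 by fragments (0.49 to 1.83), the largest gap between the measures. The strongest peak was taken in each library, so the summits compared need not coincide. In DMSO and GSK126 they lay at 165 and −129 at CCNB1, at −700 and −87 at CDCA8, and at −60 and −193 at NEK2. The ratios of these genes set different positions against each other.

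**Figure D4:**
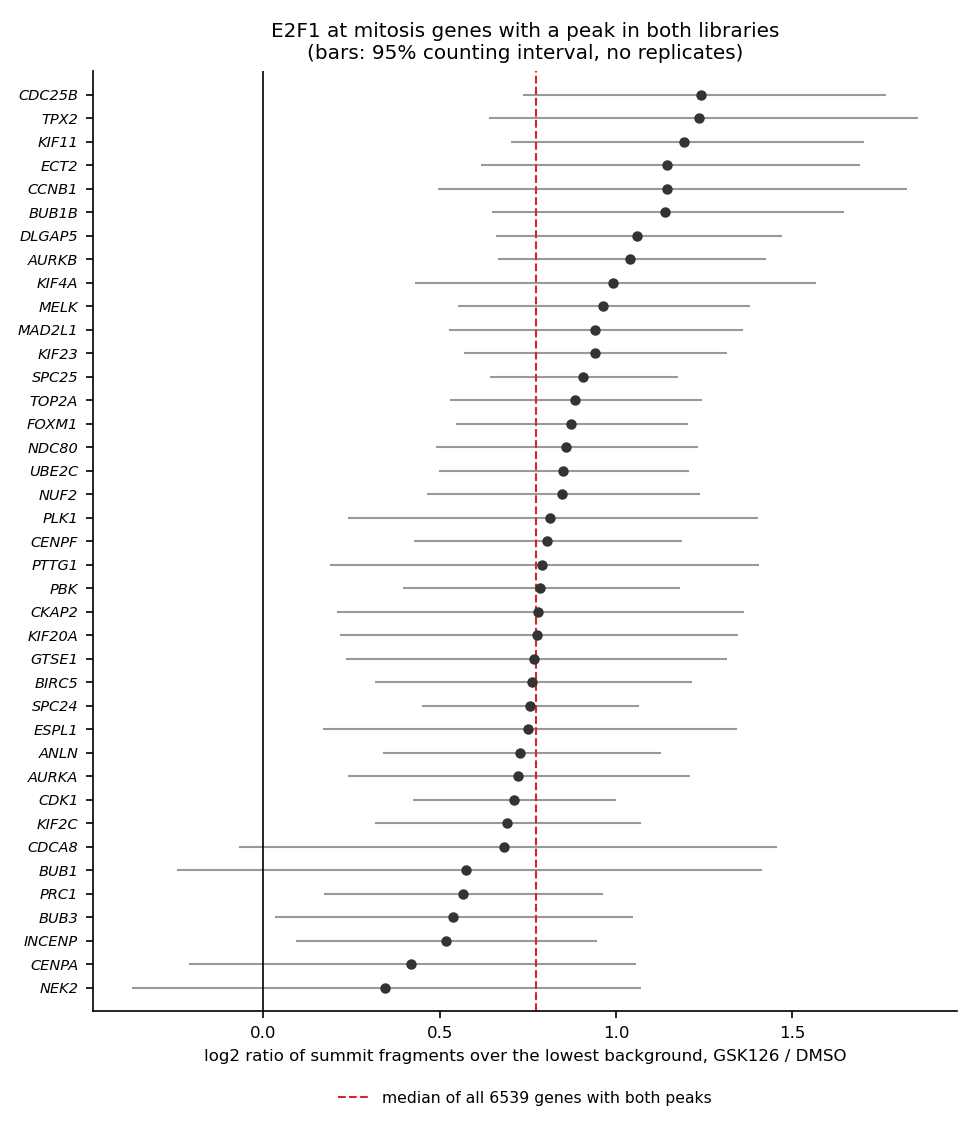
The log2 ratio, GSK126 over DMSO, of summit fragments divided by the lowest background, for the 39 mitosis genes with a peak in both libraries, with exact binomial 95% intervals for counting error as bars. All 39 points lie to the right of 0, 4 intervals cross it, and the dashed line marks the median of 0.77 over all 6539 genes with both peaks. The DMSO and GSK126 summits of a gene need not coincide, as at CCNB1, CDCA8 and NEK2.

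To describe H3K27me3 in cells with the E2F1 shRNA, shE2F1 was set against control shRNA. In control shRNA, 7 of the 45 genes had a peak, namely FOXM1, ESPL1, BUB1B, BUB3, NDC80, BIRC5 and GTSE1. By the 1 kb rule all 7 also had a peak in shE2F1, so 0 genes lost it, against 3.6% of all genes. A further 17 genes gained a peak, meaning one in shE2F1 and none in control shRNA, or 37.8% against 26.8% of all genes. The gained genes were CCNB1, CCNB2, CDC25C, AURKA, AURKB, INCENP, CDCA8, BUB1, TTK, CENPA, CENPF, SPC25, KIF11, KIF23, TPX2, PRC1 and ECT2, and 21 of the 45 genes (46.7%, against 50.0% of all genes) had no H3K27me3 peak in either list. CDK1, CDC20, PLK1, TOP2A and UBE2C were among those 21. The share that gained was near that of genes with E2F1 peaks in general. Of the mitosis genes with an untreated E2F1 peak, 8 of 19 gained (42.1%, against 43.0% of all such genes). Of those with a DMSO peak and no untreated one, 7 of 21 gained (33.3%, against 43.3%), and of those with a GSK126 peak alone, 2 of 4, against 33.2%. Among all genes with no E2F1 peak, 12.7% gained. The shE2F1 list was longer as a whole, with 135683 peaks over 179 Mb against 123957 over 143 Mb. With 1 library each, an effect of the knockdown and a difference between the libraries cannot be told apart.

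The peaks present in both libraries were the stronger ones. BUB3 was highest, and its fold was 9.59 in control shRNA and 12.6 in shE2F1. BUB1B had 5.34 and 8.76, ESPL1 had 4.51 and 6.37, and FOXM1 had 3.17 and 5.14. The smaller differences were those of NDC80 with 4.80 and 5.68, GTSE1 with 5.04 and 5.45, and BIRC5 with 5.72 and 5.56, where shE2F1 was the lower. The −log10 q was higher in shE2F1 at all 7, from 1.97 to 6.99 at FOXM1 and from 19.0 to 38.3 at BUB3. These values are averages over broad peaks, for which no fragment count or interval was recovered. Some of these peaks were centred in a neighbouring gene. The midpoints at NDC80 lay in a UTR exon of METTL4 in both libraries, and that of FOXM1 in shE2F1 lay in an intron of RHNO1. With the nearest TSS only, NDC80 had a peak in neither library. FOXM1 then had one in control shRNA alone and counted as lost, and the share of all genes lost by that rule is not given.

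The gained peaks were weak. Their fold had a median of 3.17 (2.42 to 4.90) and their −log10 q a median of 2.42 (1.05 to 7.27), close to the medians of 3.12 and 2.10 over all 5355 genes that gained. A −log10 q of at least 2 was reached by 10 of the 17, against 53.1% of all genes that gained, and a value of at least 5 by 1, CENPA, against 12.4%. CENPA had the highest fold at 4.90, followed by AURKA at 3.92, SPC25 at 3.78, INCENP at 3.72 and BUB1 at 3.71. CCNB1 was lowest in both measures, at a fold of 2.42 and a −log10 q value of 1.05 (chr5:69166955-69167528), close to the limit of the list. AURKB had 2.65, KIF23 2.61, CDC25C 2.70, ECT2 2.84 and CENPF 2.91. The rest were TTK at 3.53, CCNB2 at 3.46, TPX2 at 3.45, PRC1 at 3.17, CDCA8 at 3.16 and KIF11 at 3.08.

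Some of the gained peaks stood at another promoter. The CENPA peak (chr2:26764005-26764587) lay in a UTR exon of SLC35F6, at −21760 bp from the canonical TSS of CENPA. The KIF11 peak (chr10:92573919-92574169) lay in a UTR exon of IDE at −19086 bp, and the CDC25C peak (chr5:138337739-138338497) at −6314 bp. All 3 counted through a TSS of another annotated transcript of the gene, and 14 genes gained when the canonical TSS alone was used, against 25.9% of all genes. When a peak counted only for the gene with the nearest TSS, AURKA was lost as well and 13 genes gained, against 23.9% of all genes. The window mattered at CDCA8 and SPC25, which had control shRNA peaks outside it but within 2000 bp of a TSS. That of CDCA8 lay at −1922 bp from the nearest TSS with a fold of 9.56, above any gained peak, and the nearest of SPC25 at 1444 bp with a fold of 3.29. With a window of 2000 bp both had a peak in both libraries and 15 genes gained, against 26.3% of all genes. The single gained peak with a −log10 q of at least 5 was thus not at the canonical promoter of CENPA.

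**Figure D5:**
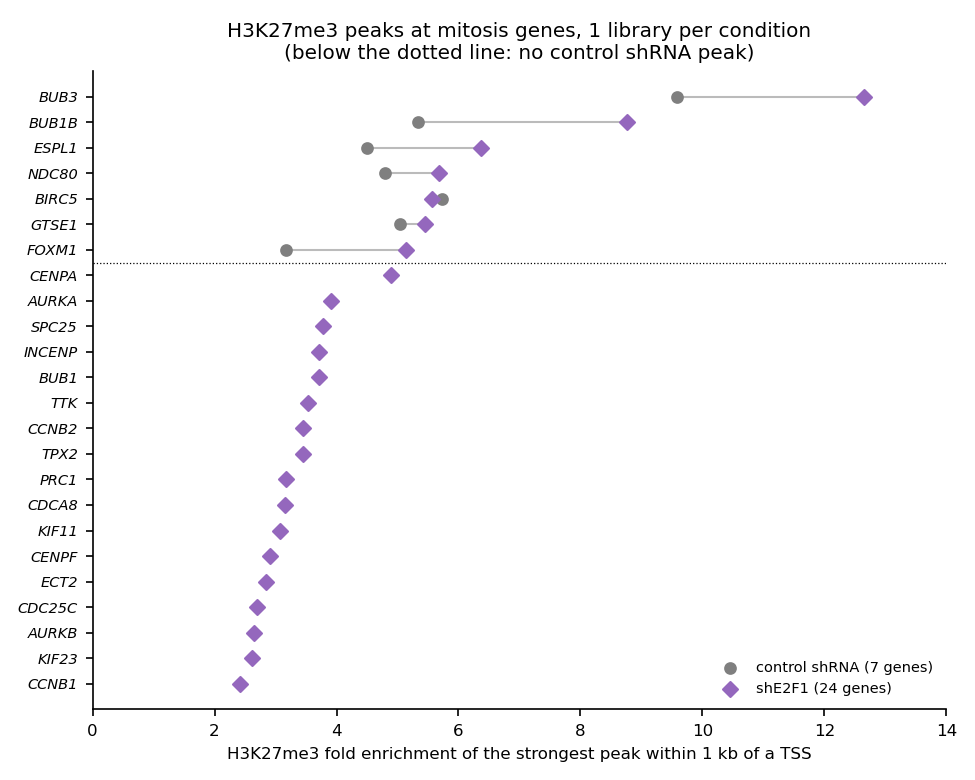
H3K27me3 fold enrichment of the strongest broad peak within 1 kb of a TSS, in control shRNA (grey circles) and shE2F1 (purple diamonds), for the 24 mitosis genes with a shE2F1 peak. The 7 genes above the dotted line have a peak in both libraries, and the 17 below it, from CENPA at 4.90 to CCNB1 at 2.42, have none in control shRNA.

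The mark covered short stretches around the TSS. Within 1 kb of the canonical TSS, H3K27me3 peaks covered on average 2.74% of the window of the 45 genes in control shRNA and 11.2% in shE2F1, with more in shE2F1 at 21 genes (46.7%, against 39.2% of all genes), less at 0 (against 6.6%) and no change at 24 (53.3%, against 54.2%). From 1 to 10 kb away they covered 0.461% and 0.824%. Over all genes the values were 8.21% and 16.8% within 1 kb and 5.97% and 7.37% from 1 to 10 kb, so the mitosis genes stood below all genes at both distances. The shE2F1 peaks had a median width of 513 bp at the mitosis genes and 622 bp over all genes with a peak. At the 17 genes that gained, the shE2F1 peak overlapped a GSK126 E2F1 peak at 17 and a DMSO E2F1 peak at 14, against 73.2% and 50.2% of the 5355 genes that gained. At the 7 with a peak in both libraries it overlapped both at 7, against 41.9% for GSK126 and 26.9% for DMSO over 3920 such genes. At CENPA, KIF11 and CDC25C the gained peak and its overlap lay away from the canonical TSS, as described above. E2F1 peaks were also more frequent at the mitosis genes than over all genes. The mark and E2F1 were measured in different cultures, and E2F1 was not profiled after the knockdown.

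Lists of related genes were counted in the same way. Of 71 other mitosis genes, 36 had an untreated E2F1 peak, 64 a DMSO peak and 70 a GSK126 peak, while 9 had H3K27me3 in control shRNA, 35 in shE2F1 and 26 gained it. Of 50 DNA replication genes the counts were 28, 48, 49, 6, 25 and 19. The highest untreated folds were 31.8 at CENPK and 27.5 at KIF15, followed by KIFC1, NCAPG2 and KIF18B, among the other mitosis genes, and 24.7 at PCNA and 24.3 at CDC6, followed by RFC4, CDC7 and RFC2, among the DNA replication genes. The highest untreated fold among the 45 genes was 18.5 at SPC25. Within the 45 genes, the 11 with an E2F motif had a median fold of 16.1 over 6 genes in the untreated library, 15.4 over 11 in DMSO and 30.3 over 11 in GSK126, and the 34 without one had 9.96 over 13, 12.8 over 28 and 19.8 over 33. Over all protein-coding genes the medians had the same direction, at 9.1, 7.2 and 9.6 with the motif and 7.7, 5.7 and 7.2 without it. Of the 45 genes, the 28 with a CHR and no E2F motif had an untreated peak at 12 (42.9%, against 5.57% of 1956 such genes overall) and a GSK126 peak at 27 (96.4%, against 34.8%), with median folds of 9.69 and 20.5.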

How the data were processed

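The starting point was the 5 peak lists the authors deposited. Per the study's methods and the submitters' processing notes, reads were checked with FastQC 0.11.5, trimmed with cutadapt 4.5, aligned to GRCh38 with Bowtie2 2.5.2 and filtered with Picard and SAMtools, and peaks were called per library with MACS2 2.2.9.1, in broad mode for H3K27me3. The control library used for peak calling is not given in the sources used here. The labels describe sonicated chromatin, and the methods describe sonication for transcription factors and micrococcal nuclease for histone marks. For each peak the deposited lists give a fold (ratio) over background and −log10 of the p-value and q-value. The deposited score (10 times −log10 q) was not used. The summit offset is deposited as a further column of narrow peaks.

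Here peaks were assigned to 19970 protein-coding genes of GENCODE 44, on 23 chromosomes, within 1000 bp of any TSS, and the strongest peak by fold stood for a gene. Fragments at narrow summits were solved from fold and p-value (Poisson, with a pseudocount of 1), within a relative error of 2e-05 for all peaks. Intervals are exact 95% intervals for counting error only. Python 3.11.15 with numpy 2.4.6, pandas 2.3.3 and scipy 1.17.1 was used, and the assignment was tested on simulated data. The genes, lists and motifs were chosen with earlier results of these data known, and the list of 45 genes was not chosen by their values. Values were given for every gene with an untreated peak, for CCNB1, CDC20 and PLK1, for the 10 highest folds in DMSO and in GSK126, for genes without a DMSO or GSK126 peak, for genes with H3K27me3, and for the 3 highest and 3 lowest ratios. The remaining genes were added for completeness. Alternatives changed the window, the TSSs, the peak threshold and the motifs.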

Additional observations from a re-analysis of the deposited data

How the results depend on the processing

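With 1 library per condition no replicate could be left out, and no paired analysis was possible because no condition has replicates. Of 57 repeats under other settings, 46 stayed within 1.5 times the reported count, or close to the reported value, and the log2 ratios kept their direction. The standing of the 45 genes against all genes turned in 4 repeats. It turned from below to above for control shRNA H3K27me3 at a −log10 q of at least 2 (13.3% against 11.8%) and of at least 5 (8.89% against 2.55%). It turned from above to below for shE2F1 H3K27me3 with the nearest TSS only (40.0% against 41.5%) and for the gain at a −log10 q of at least 5 against control shRNA peaks at the authors' threshold (2.22% against 3.32%). Keeping only the strongest peaks by −log10 q, as many as in the untreated list (chosen after seeing the data), left a peak at 25 of the 45 genes in DMSO, against 5.94% of all genes, and at 26 in GSK126, against 5.98%. At a −log10 q of at least 5, H3K27me3 was called at 4 genes in control shRNA (2.55% of all genes) and at 8 in shE2F1 (9.05%). Of these, 4 genes (CENPA, ESPL1, FOXM1 and GTSE1) gained it (6.56% of all genes), and 1 when the control shRNA peaks were kept at the authors' threshold (3.32%, chosen after seeing the data). At a −log10 q of at least 2, 11 genes gained it (17.9%). An E2F motif was found in 7 genes within 100 bp of the TSS (12.3% of all genes), in 20 within 500 bp (38.4%) and in 2 with a further T in front (4.31%). That longer motif stood at 6.82% of the GSK126 summits of these genes, against 8.71% of all promoter summits. A CHR was found in 35 to 40 genes under 3 other settings, against 6.75% to 37.1% of all genes. The cause of these changes was not tested.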

Other observations

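Of the 45 genes, 11 have the TSS of another protein-coding gene on the opposite strand within 1 kb of the canonical TSS, from 25 bp at FOXM1, next to RHNO1, to 530 bp at HMMR, next to NUDCD2. The same count was not made over all protein-coding genes, so it does not show whether such pairs are more frequent here. A peak whose summit or midpoint lies within 1 kb of a TSS of both genes counts for both. The median GC content from 200 bp before to 100 bp after the canonical TSS was 61.7% in the 45 genes and 65% over all protein-coding genes. The GSK126 E2F1 peaks were wider at the 45 genes, with a median of 990 bp (434 to 2111 bp) against 801 bp over all genes with a peak.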
